A study of Mus musculus with 12 samples.

Results

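The genes described here are the mouse genes whose symbol begins with Zfp followed by a digit, the name that mouse nomenclature gives to many zinc finger protein genes. They were taken by symbol from a table of normalized expression in cultured and freshly isolated hepatic stellate cells, in which 324 of the 12081 listed genes carry such a name. The 12 libraries, stranded and made from poly(A) RNA, come from mouse primary hepatic stellate cells. These are liver pericytes that store vitamin A at rest and turn into matrix-producing myofibroblasts when activated. All cells came from Hk2 fl/fl mice, in which both copies of the hexokinase 2 gene can be cut by Cre recombinase, and all were isolated from liver by density gradient. In the LAC group, cells that had received Ad-Cre, an adenovirus with Cre fused to eGFP that deletes Hk2, were kept in culture for 6 days and given 10 mM lactate for 24 h. The KO group received Ad-Cre and the same 6 days of culture without added lactate. The ACT group received Ad-GFP, an adenovirus with eGFP alone, and was cultured for 6 days. The QS group was freshly isolated and is labelled untreated. Each group has 3 libraries. ACT thus differs from QS in virus, culture and time at once, and LAC differs from ACT in both Cre and lactate. Nothing states whether the 3 libraries of a group are 3 animals or 3 cultures, and the p-values therefore cover the spread among libraries, which may be technical.

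Zinc finger proteins hold short loops of the chain around a zinc ion, and each loop of the C2H2 type can read a few bases of DNA. In mammals the largest class joins an array of such fingers to a KRAB box, a short domain that binds the corepressor TRIM28 and through it the histone methyltransferase SETDB1, and many members of this class silence retroelements or guard imprinted loci. The Zfp name also covers proteins of other kinds: promoter factors without a KRAB box, regulators of fat and connective tissue cells, ribosome and splicing proteins, and the ZFP36 proteins, whose CCCH fingers bind AU-rich elements in mRNA and bring the deadenylation machinery to it.

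The libraries were far from equal in the cell types they held, as read from marker genes. Summed endothelial markers (12 genes) ran from 4168 to 4389 CPM (counts scaled to a common library size) in LAC, from 7730 to 8740 in KO, from 748 to 779 in ACT and from 14533 to 15000 in QS. The 14 macrophage markers summed to 3731 to 3825 CPM in LAC, 159 to 162 in KO, 15375 to 15703 in ACT and 5052 to 5121 in QS. The 12 hepatocyte markers summed to 0.675 to 1.16 CPM in LAC, where all 12 were under 1 CPM, 305 to 329 in KO, 13.5 to 17.4 in ACT and 2036 to 2112 in QS. The 14 stellate cell markers summed to 5372 to 5747 CPM in LAC, 3386 to 3687 in KO, 8911 to 8948 in ACT and 3973 to 4039 in QS, and each of them was above 1 CPM in every group mean. These sums do not follow most genes of the list: in ACT vs QS 5 of the 14 were called higher and 9 lower (median log2 fold change -2.10), and in KO vs ACT 10 were called higher and 3 lower. Of the 12 lymphocyte and neutrophil markers only S100a8 was listed, at 0 to 4.45 CPM per library, and the 9 listed mesothelial and biliary markers summed to 60.1 to 204 CPM. Hk2 itself was at 18.7 to 19.7 CPM in LAC, 10.7 to 13.7 in KO, 181 to 182 in ACT and 66.7 to 73.5 in QS. In RNA of bulk cells, fewer cells of a type and less RNA per cell cannot be told apart. The depth, estimated from the steps between low values, was such that 3 reads correspond to 0.212 to 0.720 CPM.

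The promoters of 4 of the genes are shown because their transcripts carried the main patterns below: Zfp36 and Zfp36l1, which fell together in ACT, Zfp69, the KRAB gene that fell most in ACT, and Zfp53, a KRAB gene that was highest in ACT. Each line gives the 250 bases before the annotated start, 5′ to 3′ on the strand of the gene, from RefSeq on GRCm38.p6: Zfp36 at chr7:28379229-28379478 (minus strand), Zfp36l1 at chr12:80113014-80113263 (minus strand), Zfp69 at chr4:120951702-120951951 (minus strand) and Zfp53 at chr17:21488738-21488987 (plus strand). Capitals mark matches to 3 motifs, searched on both strands: the CArG box of serum response factor, AP-1 (TGANTCA) and ETS (CCGGAAG).
Zfp36: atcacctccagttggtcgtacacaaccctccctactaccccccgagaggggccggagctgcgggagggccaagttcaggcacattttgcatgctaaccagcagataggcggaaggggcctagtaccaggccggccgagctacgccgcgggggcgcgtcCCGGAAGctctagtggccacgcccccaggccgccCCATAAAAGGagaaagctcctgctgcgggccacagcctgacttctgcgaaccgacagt
Zfp36l1: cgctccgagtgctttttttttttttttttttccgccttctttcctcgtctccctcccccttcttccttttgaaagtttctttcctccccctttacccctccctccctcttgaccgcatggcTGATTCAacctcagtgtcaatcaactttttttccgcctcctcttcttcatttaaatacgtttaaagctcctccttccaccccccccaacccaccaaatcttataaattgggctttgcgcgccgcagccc
Zfp69: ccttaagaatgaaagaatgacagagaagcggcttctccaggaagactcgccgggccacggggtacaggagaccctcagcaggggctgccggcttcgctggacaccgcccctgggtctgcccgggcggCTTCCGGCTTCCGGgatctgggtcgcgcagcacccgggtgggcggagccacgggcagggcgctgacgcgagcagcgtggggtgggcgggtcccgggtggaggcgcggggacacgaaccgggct
Zfp53: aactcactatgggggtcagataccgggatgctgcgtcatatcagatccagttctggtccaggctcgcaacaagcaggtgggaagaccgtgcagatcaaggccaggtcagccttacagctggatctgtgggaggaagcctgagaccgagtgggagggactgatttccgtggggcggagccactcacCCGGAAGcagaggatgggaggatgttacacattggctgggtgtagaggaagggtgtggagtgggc
Zfp36 holds a CArG box that begins 58 bases before the start and an ETS match that begins 92 bases before it. Zfp36l1 holds an AP-1 match that begins 129 bases before the start. Zfp69 holds 2 adjacent ETS matches on the other strand, the nearer one from 116 bases before the start, and Zfp53 holds 1 from 65 bases before it. RefSeq windows from 250 bases before to 50 after the start were given for 271 of the Zfp genes. Over these windows 22.9% held the ETS letters, against 18.4% of the windows of all listed genes and 9.12% of all RefSeq windows. The CArG box was in 1.48% of Zfp windows, in 1.27% of those of all listed genes and in 1.57% of all RefSeq windows. AP-1 letters were in 3.69% of Zfp windows, 5.04% of those of all listed genes and 7.93% of all RefSeq windows. A GC box (GGGCGG) was in 46.5% of Zfp windows and 64.7% of those of all listed genes, and a cyclic AMP response element (TGACGTCA) was in 4.06% and 3.23% of these windows. Zfp windows were less rich in G and C, with a median of 54.3% against 61.0% in all listed genes. A match is a string of letters and does not show that a factor binds.

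Zfp transcripts were scarce in every group. The median member stood at 13.3 CPM in LAC, 13.8 in KO, 12.7 in ACT and 15.1 in QS, where the median of all listed genes was 28.0, 27.9, 28.1 and 29.3 CPM in these groups. Summed over all 324 members, the level was 8239 ± 29.7 CPM in LAC, 8204 ± 127 in KO, 7636 ± 122 in ACT and 10120 ± 95.2 in QS (mean ± SD of the summed level, n = 3 libraries each). Every QS library (10040 to 10225 CPM) held more Zfp RNA than any cultured library, and every ACT library (7544 to 7775 CPM) held less than any other. For 190 members (58.6%) the highest of the 4 group means was in QS, where this held for 36.5% of all listed genes. The lowest group mean was in ACT for 112 members (34.6%), against 27.5% of all listed genes. At 100 CPM or more stood 10 members in LAC, 7 in KO, 10 in ACT and 16 in QS. Below 5 CPM stood 65, 69, 69 and 49 members in the same groups.

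**Figure D1:**
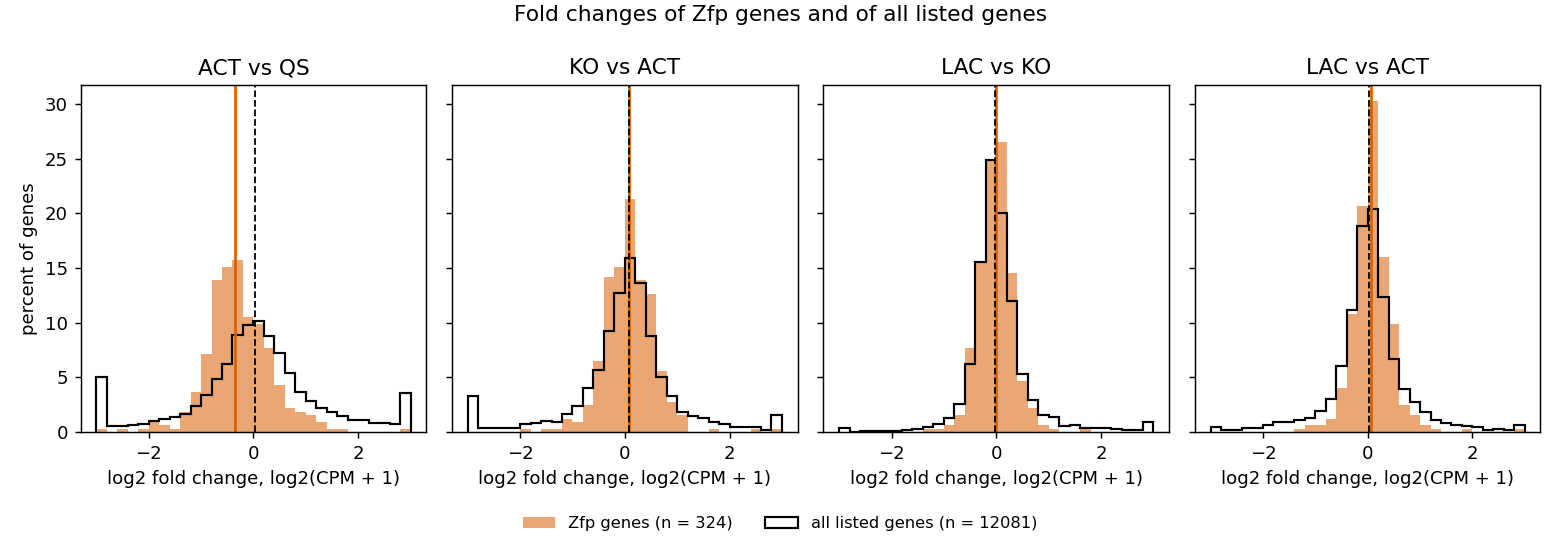
Distribution of log2 fold changes, on the log2(CPM + 1) scale, in the 4 comparisons for the 324 Zfp genes (filled) and for all 12081 listed genes (outline), as percent of genes per bin of 0.2. Vertical lines mark the medians (solid: Zfp genes, dashed: all listed genes) and values beyond ±3 are gathered in the end bins. The Zfp distribution is shifted to the left in ACT vs QS, with a median of -0.35 against 0.03. In the other 3 comparisons the medians lie close together, but the Zfp distribution is narrower. Its lower and upper quartiles are -0.21 and 0.38 against -0.32 and 0.43 in KO vs ACT. In LAC vs KO they are -0.21 and 0.19 against -0.23 and 0.23, and in LAC vs ACT -0.12 and 0.28 against -0.25 and 0.30.

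Activated cells were compared with freshly isolated cells to describe the family across virus, culture and time. Zfp transcripts were mostly lower in ACT. At an adjusted p under 0.05, 38 of the 324 members were called higher and 159 lower, that is 11.7% and 49.1%, where 38.0% of all listed genes were called higher and 35.5% lower. The median log2 fold change of the members was -0.35 against 0.03 over all listed genes, and 229 of the members lay below 0. Changes were small in most: 10 members rose and 25 fell by 2-fold or more. Over all 12081 listed genes 1965 rose and 1800 fell by as much, larger shares than among the members. Folds were taken as log2(CPM + 1), a scale that makes folds of low genes look smaller than they are. The share called lower grew with the level of the gene. Among members under 10 CPM 35.8% were called lower, against 25.7% of all listed genes at that level, between 10 and 30 CPM 48.1% against 32.6%, and from 30 CPM up 72.6% against 41.6%. Other zinc finger gene names gave similar counts, with 7 higher and 21 lower among 40 Zbtb genes (median log2 fold change -0.39), 10 lower and none of the others called among 17 Zscan and Zkscan genes (-0.43) and 2 higher and 7 lower among 18 Zc3h genes (-0.27). Endothelial and hepatocyte markers were also lower in ACT, for all 12 genes of each list, and their part in the lower Zfp levels was not tested.

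The steepest fall among the members was that of Zfp366, also known as DC-SCRIPT, a nuclear receptor cofactor known from dendritic cells. Zfp366 was at 20.8, 16.8 and 19.2 CPM in LAC, at 38.8, 34.0 and 32.3 CPM in KO, at 1.37, 2.95 and 1.11 CPM in ACT and at 89.0, 93.3 and 80.6 CPM in QS (log2 fold change -5.03, standard error 0.18, adjusted p = 7.18e-12 for ACT vs QS). No pair of groups overlapped, and the order of levels, ACT lowest, then LAC, KO and QS, is that of the summed endothelial markers, whose part in it was not tested. Zfp69, a KRAB gene known in mice from a locus for diabetes and blood lipids, followed with 2.61, 0.987 and 1.51 CPM in ACT and 13.3, 13.8 and 13.2 CPM in QS (log2 fold change -2.46, standard error 0.21, adjusted p = 8.75e-08). Its QS libraries lay within 1 CPM of each other and far above all 3 ACT libraries. Zfp652, a repressor without a KRAB box, was at 57.4, 55.6 and 59.6 CPM in ACT and 226, 219.8 and 222 CPM in QS (log2 fold change -1.94, standard error 0.07, adjusted p = 2.85e-12), so that its ACT libraries all lay under 60 CPM and its QS libraries all above 210 CPM. Zfp521, an inhibitor of early B cell factor 1 that acts in bone, fat and blood progenitors, was at 3.61, 3.76 and 4.44 CPM in ACT and 18.6, 13.1 and 18.8 CPM in QS (log2 fold change -1.84, standard error 0.16, adjusted p = 1.47e-07). Its 3 ACT libraries were all below the lowest QS library. Zfp14, a KRAB gene close to the detection limit, was at 0.795, 0 and 2.46 CPM in ACT and 5.82, 5.43 and 5.30 CPM in QS (log2 fold change -1.83, standard error 0.39, adjusted p = 7.84e-04), with 1 ACT library listed at 0. Further falls were those of Zfp467, which promotes fat cell commitment in marrow (7.46 ± 0.386 CPM in ACT and 23.5 ± 2.5 CPM in QS), Zfp319 (19.6 ± 1.35 CPM in ACT and 49.4 ± 5.14 CPM in QS) and the KRAB gene Zfp715 (45.1 ± 3.86 CPM in ACT and 112 ± 4.33 CPM in QS).

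Against this direction, 38 members rose in ACT. Zfp365, which in humans encodes a centrosomal and DISC1-binding protein and holds no classical array of fingers, rose most, with 19.7, 21 and 22.3 CPM in ACT and 2.25, 2.01 and 0.321 CPM in QS (log2 fold change 3.23, standard error 0.27, adjusted p = 6.78e-08). It was nearly absent from QS, where 1 library, at 0.321 CPM, lay below the level of 3 reads (0.627 CPM in that library). Zfp518b, in human cells a partner of the histone methyltransferase G9a, was at 37.6, 38.4 and 36.4 CPM in ACT and 9.81, 9.84 and 11.9 CPM in QS (log2 fold change 1.74, standard error 0.09, adjusted p = 3.90e-10). All 3 ACT libraries lay above 36 CPM and all QS libraries below 12 CPM. Zfp827, which in human cells recruits the NuRD complex to telomeres, was at 25.9, 20.8 and 23.1 CPM in ACT and 7.47, 8.11 and 9.37 CPM in QS (log2 fold change 1.38, standard error 0.13, adjusted p = 2.23e-07). Zfp385a, a p53 cofactor that also binds mRNA, was at 42.4, 48.3 and 41.1 CPM in ACT and 20.3, 15.8 and 14.2 CPM in QS (log2 fold change 1.35, standard error 0.13, adjusted p = 3.28e-07). Both stood above 20 CPM in every ACT library, and in both the groups did not overlap. Zfp54, a KRAB gene, was at 6.4, 5.39 and 5.97 CPM in ACT and 0.963, 2.79 and 1.02 CPM in QS (log2 fold change 1.49, standard error 0.29, adjusted p = 3.40e-04), a rise between low levels. Zfp7, a KRAB gene with 30.5% of its 31-base stretches shared with another gene, was called higher (log2 fold change 1.26, standard error 0.40, adjusted p = 0.0115), a call lost without ACT replicate 1 (adjusted p = 0.0516), ACT replicate 3 (adjusted p = 0.0672) or QS replicate 3 (adjusted p = 0.0513).

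**Figure D2:**
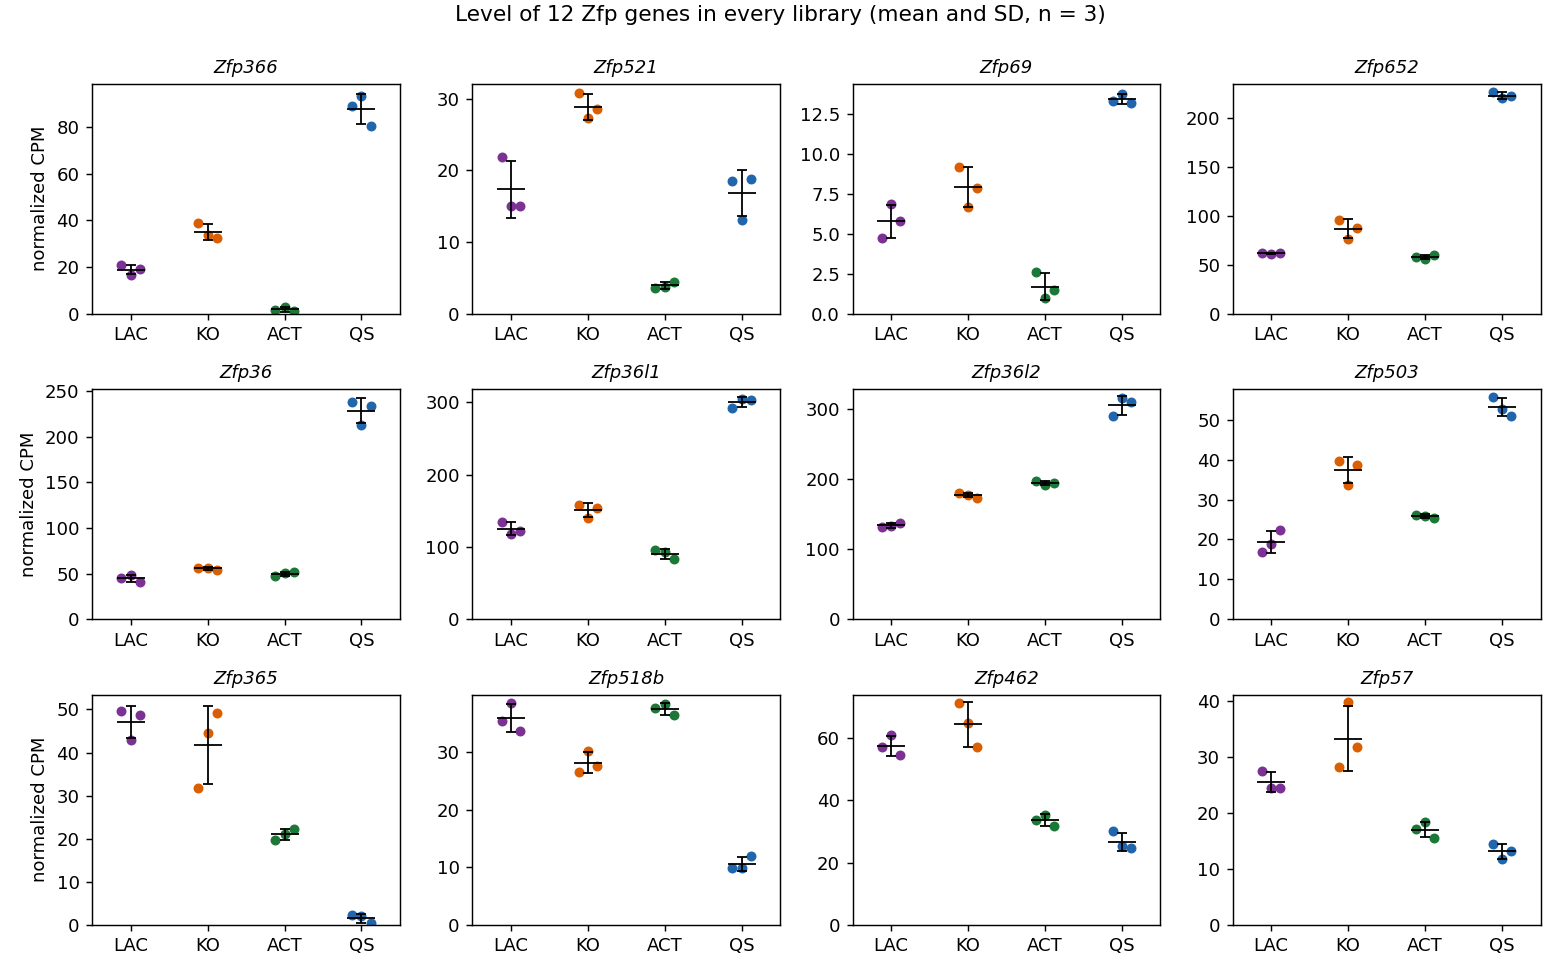
Normalized CPM of 12 Zfp genes in each of the 12 libraries (points), with the mean (wide bar) and SD (error bar) of the 3 libraries of each group. Zfp366, Zfp521 and Zfp69 are lowest in ACT, Zfp36 and Zfp652 stand apart in QS, Zfp365 is lowest in QS, and Zfp462 and Zfp57 are highest in KO and LAC.

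All 3 listed ZFP36 genes fell in ACT. Zfp36, which encodes tristetraprolin, the best known of these mRNA decay factors, was the one that moved most. Zfp36 was at 45.4, 48.4 and 40.2 CPM in LAC, at 56.5, 56.2 and 54.0 CPM in KO, at 47.1, 50.8 and 51.3 CPM in ACT and at 238, 213 and 234 CPM in QS (log2 fold change -2.17, standard error 0.07, adjusted p = 1.34e-12 for ACT vs QS). The 3 cultured groups lay between 40 and 57 CPM and all QS libraries above 210 CPM. Zfp36l1 had its lowest level in ACT. Zfp36l1 was at 135, 118 and 122 CPM in LAC, at 158, 139.9 and 154 CPM in KO, at 95.1, 93.2 and 83.0 CPM in ACT and at 293, 305 and 303 CPM in QS (log2 fold change -1.72, standard error 0.06, adjusted p = 7.99e-12). None of its groups overlapped, and KO stood above ACT (log2 fold change 0.73, standard error 0.06, adjusted p = 1.99e-07) and LAC below KO (log2 fold change -0.27, standard error 0.06, adjusted p = 0.00419). Zfp36l2 changed least of the 3 in ACT vs QS. Zfp36l2 was at 131, 133 and 138 CPM in LAC, at 180.0, 177 and 173 CPM in KO, at 196, 191 and 194 CPM in ACT and at 289, 316 and 309 CPM in QS (log2 fold change -0.65, standard error 0.04, adjusted p = 2.16e-09). LAC was the lowest group for this gene, and its libraries lay below every KO and ACT library. LAC was below KO for all 3 genes, also for Zfp36 (log2 fold change -0.31, standard error 0.07, adjusted p = 0.00238), while KO vs ACT was called higher for Zfp36l1, lower for Zfp36l2 (log2 fold change -0.13, standard error 0.04, adjusted p = 0.0104) and not called for Zfp36 (log2 fold change 0.16, standard error 0.07, adjusted p = 0.0611).

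The proteins that ZFP36 proteins work with were less uniform. Of 24 listed genes of deadenylation and decapping, 4 were called higher and 15 lower in ACT vs QS (median log2 fold change -0.29). These are 16.7% and 62.5%, where 38.0% and 35.5% of all listed genes were called. Cnot1, the scaffold of the CCR4-NOT deadenylase, was at 189 ± 6.92 CPM in ACT and 186 ± 10.4 CPM in QS (log2 fold change 0.02, adjusted p = 0.828), while the poly(A)-binding protein genes Pabpc4 (1.63) and Pabpc1 (1.15) rose. In KO vs ACT 11 of these genes (45.8%) were called higher and 4 (16.7%) lower, where 36.0% and 26.3% of all listed genes were. Of 13 listed mRNAs known as targets of ZFP36 proteins, 2 were called higher and 10 lower in ACT vs QS (38.0% and 35.5% of all listed genes). The counts were 2 and 8 in KO vs ACT (36.0% and 26.3% of all listed genes) and 7 and 3 in LAC vs KO (20% and 21% of all listed genes). In LAC vs ACT they were 4 and 7 (27.8% and 21.7% of all listed genes). Ptgs2, the inducible cyclooxygenase gene, was at 609 ± 25 CPM in LAC, 291 ± 26.0 in KO, 268 ± 8.49 in ACT and 4.94 ± 1.15 in QS. Il6 was at 17.2 ± 2.67 CPM in LAC, 2.39 ± 0.146 in KO, 9.56 ± 0.671 in ACT and 7.64 ± 1.49 in QS, and the chemokine gene Ccl2 at 30.7 ± 1.91 CPM in LAC, 39.7 ± 2.48 in KO, 43.0 ± 0.554 in ACT and 599 ± 19.4 in QS. Il1b was listed at 0 in all LAC libraries and at 38.8 ± 2.82 CPM in QS. Macrophages also make several of these mRNAs, and the summed macrophage markers given above differed between all groups. Their part was not tested.

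Members grouped by known role differed in how many fell, and a value alone in parentheses after a gene is its log2 fold change in the comparison named. In ACT vs QS 11.7% of all members and 38.0% of all listed genes were called higher, and 49.1% and 35.5% lower. Of 14 broadly used promoter and chromatin factors, 1 rose and 10 fell in ACT vs QS (7.14% and 71.4%, median log2 fold change -0.34), the riser being Zfp827. Zfp292, a large DNA-binding protein, fell most (55.7 ± 0.179 CPM in ACT and 117 ± 6.55 CPM in QS, log2 fold change -1.06), ahead of Zfp384 (-0.88, with 20.5% of its 31-base stretches shared) and Zfp592 (-0.79). Smaller falls were those of Zfp143, which binds promoters of snRNA and many protein-coding genes (-0.45), Zfp335, a partner of a histone H3K4 methyltransferase complex (-0.44), Zfp281, a pluripotency factor (-0.43), and the ubiquitin ligase gene Zfp91 (-0.35). Of 9 listed members with roles in mesenchymal, fat or matrix cells, 1 rose and 7 fell (11.1% and 77.8%, median log2 fold change -0.81). The fallers included Zfp503 (-1.01) and Zfp703 (-1), related developmental repressors, Zfp217, an oncoprotein that binds CtBP (-0.75), and Zfp516, a factor of brown fat (-0.40), and the riser was Zfp462, a regulator of heterochromatin in stem cells (0.32). Zfp423, Zfp469 and Zfp536 of that list were not among the listed genes. All 3 listed members known from immune cells fell: Zfp366, Zfp608, known from thymocytes (-1.14), and Zfp318, which governs IgD in B cells (-0.62).

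Of 10 members with roles in RNA, ribosomes and splicing, 2 rose and 4 fell in ACT vs QS (20% and 40%). Beside this, 11.7% and 49.1% of all members and 38.0% and 35.5% of all listed genes were called higher and lower. Zfp598, the ubiquitin ligase that marks collided ribosomes, was at 24.3, 25.4 and 25 CPM in ACT and 44.6, 43.8 and 43.2 CPM in QS (log2 fold change -0.79, standard error 0.07, adjusted p = 2.69e-07). It was lower in every ACT library than in any QS library. Of 13 listed genes of the same collision pathway 8 rose and 3 fell (61.5% and 23.1%), among them the ribosomal protein gene Rack1 (log2 fold change 0.77) and Pelo, which rescues stalled ribosomes (-0.94). Zfp638, a splicing and fat cell factor, was at 116 ± 2.09 CPM in ACT and 149 ± 7.88 CPM in QS (log2 fold change -0.35). The rises were those of Zfp385a, given above, and of the RNA-binding Zfp106 (249 ± 3.8 CPM in ACT and 223 ± 8.95 CPM in QS, log2 fold change 0.16). Among 7 listed KRAB members known from imprinted loci or retroelements, 3 rose and 1 fell (42.9% and 14.3%, median log2 fold change 0.24). Zfp809, which silences retroviruses, was at 44.2, 47.9 and 44.3 CPM in ACT and 23.1, 25.6 and 27.0 CPM in QS (log2 fold change 0.83, standard error 0.08, adjusted p = 1.87e-07). Zfp568, which represses a placental promoter of Igf2, was at 58.5, 53.8 and 54.9 CPM in ACT and 38.3, 36.5 and 40.2 CPM in QS (log2 fold change 0.53, standard error 0.06, adjusted p = 8.67e-07). In both, all ACT libraries lay above all QS libraries. Zfp57, which keeps imprints in embryos, rose by less (0.35), a call lost without ACT replicate 2 (adjusted p = 0.0763) or QS replicate 2 (adjusted p = 0.0775), and Zfp445, which also guards imprints, fell (132 ± 2.34 CPM in ACT and 188 ± 14.8 CPM in QS, log2 fold change -0.50).

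The genes that KRAB proteins act through moved in both directions. Of 24 listed genes of the TRIM28 corepressor and heterochromatin, 12 were called higher and 9 lower in ACT vs QS (median log2 fold change 0.30). These are 50% and 37.5%, where 38.0% and 35.5% of all listed genes were called, so the share of falls is close to that of all genes. Setdb1, the histone methyltransferase that TRIM28 brings, was at 47.2 ± 2.65 CPM in ACT and 47.9 ± 5.01 CPM in QS (log2 fold change -0.02, adjusted p = 0.852). Trim28 itself was at 142 ± 7.53 CPM in ACT and 106 ± 6.58 CPM in QS (log2 fold change 0.42, adjusted p = 1.27e-05). The remodeller gene Hells rose by a log2 fold change of 2.81, Chd3 by 1.72 and Dnmt1, the maintenance DNA methyltransferase gene, by 1.23, while Daxx, a histone chaperone gene, fell by 1.91 on the log2 scale.

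Hk2-deleted cells were compared with activated cells to ask how the family differs when the hexokinase gene is deleted. More Zfp genes rose than fell, but fewer of them changed than of all genes. In KO vs ACT 89 members were called higher and 44 lower (27.5% and 13.6%), where 36.0% of all listed genes were called higher and 26.3% lower, and the medians of the log2 fold change were 0.08 and 0.07. By 2-fold or more, 7 of the 324 members rose and 6 fell, where 1108 and 1181 of all 12081 listed genes did. Calls depend on the level, and the median member stood lower than the median gene. Under 10 CPM, 16.7% of members were called higher and 12.5% lower, against 22.6% and 23.3% of all listed genes. Between 10 and 30 CPM it was 32.1% and 13.0% against 30.6% and 25.3%, so rises were not fewer at that level. From 30 CPM up it was 37.0% and 16.4% against 45.1% and 28.2%. The 3 largest rises were those of genes that had been among the steepest to fall in ACT. Zfp366 stood at a log2 fold change of 3.73 (standard error 0.18, adjusted p = 3.62e-10), with the library values given above. Zfp521 was at 30.7, 27.3 and 28.5 CPM in KO, which put the KO libraries above the ACT libraries (3.61 to 4.44 CPM) and also above the QS libraries (log2 fold change 2.60, standard error 0.16, adjusted p = 5.48e-09). Zfp69 was at 9.21, 6.70 and 7.87 CPM in KO, between ACT and QS (log2 fold change 1.76, standard error 0.21, adjusted p = 4.98e-06). ACT and its libraries enter both comparisons, and endothelial markers were higher in KO than in ACT for all 12 genes. Their part in these rises was not tested.

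Further rises in KO were smaller and between low or middle levels. Zfp850, a KRAB gene, was at 23.2, 26.0 and 25.4 CPM in KO and 12.6, 14.3 and 10.7 CPM in ACT (log2 fold change 0.94, standard error 0.15, adjusted p = 6.33e-05), and Zfp667, also with a KRAB box, at 7.47, 11.9 and 9.11 CPM in KO and 4.31, 3.73 and 2.84 CPM in ACT (log2 fold change 1.17, standard error 0.18, adjusted p = 5.56e-05). In both, each KO library lay above each ACT library. Zfp462 was at 71.4, 64.9 and 57.1 CPM in KO and 33.7, 35.4 and 31.7 CPM in ACT (log2 fold change 0.92, standard error 0.09, adjusted p = 9.75e-07). Zfp57 was at 28.3, 39.7 and 31.8 CPM in KO and 17.1, 18.3 and 15.6 CPM in ACT (log2 fold change 0.92, standard error 0.12, adjusted p = 1.75e-05). For these 2 genes KO was the highest of the 4 groups by its mean. Of the 7 KRAB members known from imprinted loci or retroelements, 3 were not called and 4 were called higher in KO (57.1%, beside 27.5% of all members and 36.0% of all listed genes). These were Zfp57, Zfp568 (0.69), Zfp809 (0.40) and Zfp445 (0.34). Zfp652 also rose (log2 fold change 0.58, standard error 0.07, adjusted p = 3.17e-06), and so did Zfp598 (0.45), Zfp622, a factor of the large ribosomal subunit (0.43), Zfp703 (0.54) and Zfp704 (0.57). Calls for Zfp14 (1.02) and Zfp7 (1.10) did not hold: that of Zfp14 was lost without ACT replicate 1 or 2 or KO replicate 2 or 3 (adjusted p 0.0548 to 0.183) and that of Zfp7 without ACT replicate 2 or any KO replicate (adjusted p 0.0554 to 0.121).

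The falls in KO were led by genes that were highest in ACT, among them 3 neighbouring KRAB genes that share much sequence. ACT is the reference of this comparison, so the largest falls favour genes high in ACT by construction. Zfp268 had the largest fall. Zfp268 was at 14.2, 14.7 and 12 CPM in LAC, at 7.24, 4.52 and 8.78 CPM in KO, at 25.9, 29.2 and 24.0 CPM in ACT and at 15.5, 10.4 and 11.6 CPM in QS (log2 fold change -1.84, standard error 0.19, adjusted p = 1.59e-06 for KO vs ACT). ACT stood above all other libraries and KO below them. Zfp268 matched no gene of the annotation used, so that its place and protein features are not given. Zfp992 showed the same order of ACT and KO. Zfp992 was at 19.9, 15.9 and 18.5 CPM in LAC, at 12.9, 12.2 and 12.1 CPM in KO, at 30.3, 30.6 and 26.0 CPM in ACT and at 13.1, 14.1 and 13.8 CPM in QS (log2 fold change -1.16, standard error 0.10, adjusted p = 2.79e-07). Zfp991 was higher throughout. Zfp991 was at 38.1, 33.7 and 41.1 CPM in LAC, at 25.6, 26.9 and 33.5 CPM in KO, at 72.3, 58.2 and 54.7 CPM in ACT and at 31.7, 37.3 and 30.6 CPM in QS (log2 fold change -1.08, standard error 0.12, adjusted p = 3.58e-06). ACT was again the highest group without overlap. Zfp993 was at 5.89, 5.57 and 5.18 CPM in KO and 12.3, 10.7 and 15.8 CPM in ACT (log2 fold change -1.07, standard error 0.16, adjusted p = 4.15e-05). Zfp991, Zfp992 and Zfp993 lie next to each other on chromosome 4 and share 88.0%, 48.3% and 91.9% of their 31-base stretches with another annotated gene, so reads can move between them and their single values are uncertain. Zfp53, on chromosome 17 with 6.68% shared, was at 9.32, 7.74 and 9.11 CPM in KO and 19.2, 14.9 and 16.3 CPM in ACT (log2 fold change -0.87, standard error 0.13, adjusted p = 3.90e-05) and shares far less. Zfp414, which has no KRAB box and 20.3% of its 31-base stretches shared, was at 3.72, 3.65 and 1.02 CPM in KO and 7.81, 10.7 and 7.52 CPM in ACT (log2 fold change -1.44, standard error 0.31, adjusted p = 0.00105). Macrophage markers were lower in KO than in ACT for all 14 genes, with 13 called lower, and their part in these falls was not tested.

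**Figure D3:**
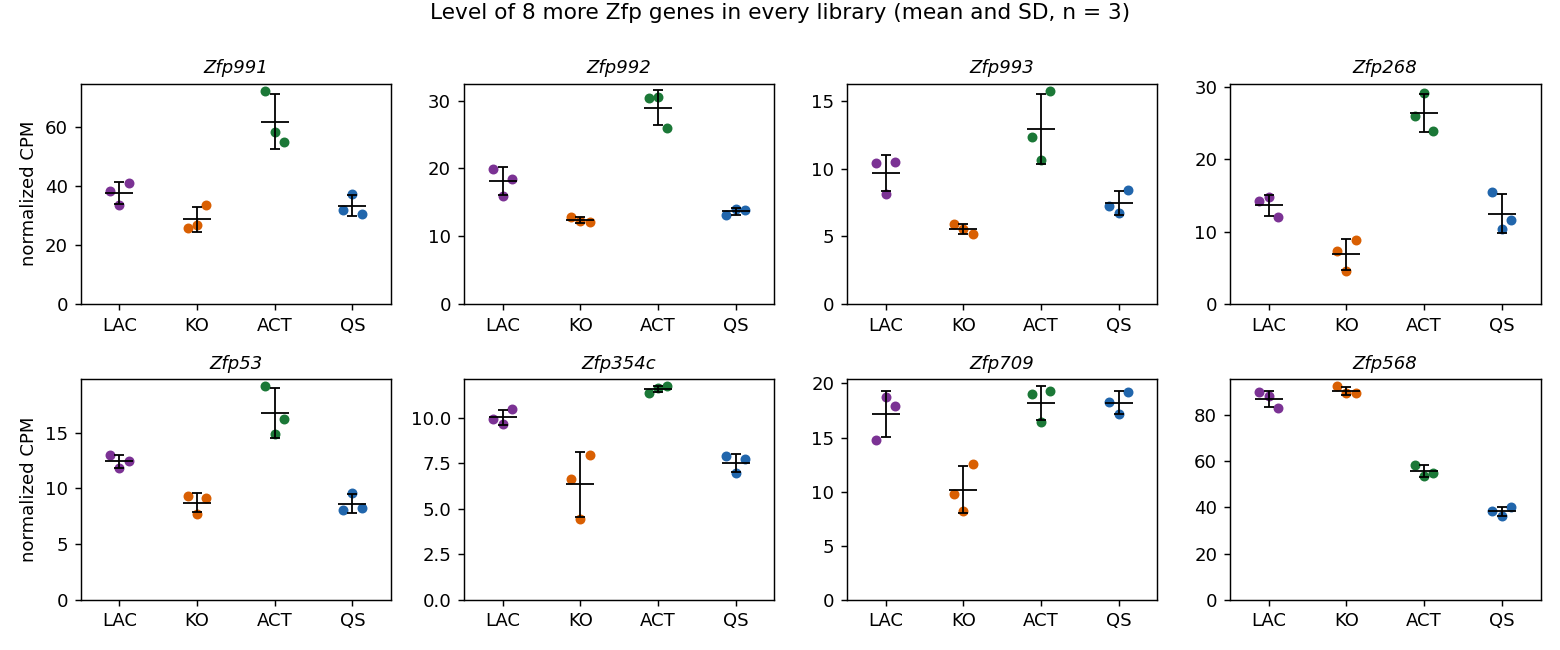
Normalized CPM of 8 further Zfp genes in each of the 12 libraries (points), with the mean (wide bar) and SD (error bar) of 3 libraries. Zfp991, Zfp992, Zfp993, Zfp268 and Zfp53 are highest in ACT, Zfp354c and Zfp709 are lowest in KO, and Zfp568 is higher in LAC and KO than in ACT and QS.

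Lactate-treated cells were compared with Hk2-deleted cells to ask what lactate changed. Few Zfp genes moved, and about as many rose as fell. In LAC vs KO 35 members were called higher and 33 lower (10.8% and 10.2%), where 20% of all listed genes were called higher and 21% lower. Under 10 CPM the shares of members were 7.5% and 5.83%, against 13.9% and 9.41% of all listed genes. Between 10 and 30 CPM they were 8.40% and 9.92% against 16.1% and 17.3%, and from 30 CPM up 20.5% and 17.8% against 24.9% and 28.3%. After quantile scaling the counts were 30 higher and 45 lower, so that the share of falls among the calls depends on the scaling. Without LAC replicate 3 the members called lower numbered 19. The median log2 fold change was -0.01 against -0.02 over all listed genes, and 2 members rose and 1 fell by 2-fold or more. Over all 12081 listed genes 618 rose and 264 fell by as much. Zfp503, a developmental repressor, led the falls among the genes with at least 5 CPM. Zfp503 was at 17.0, 18.9 and 22.4 CPM in LAC, at 39.7, 33.8 and 38.7 CPM in KO, at 26.2, 26.0 and 25.4 CPM in ACT and at 55.8, 52.8 and 51.1 CPM in QS (log2 fold change -0.92, standard error 0.10, adjusted p = 3.68e-06 for LAC vs KO). LAC was its lowest group, below ACT as well, and no groups overlapped. Zfp366 (log2 fold change -0.85, standard error 0.18, adjusted p = 0.00212), Zfp521 (log2 fold change -0.72, standard error 0.16, adjusted p = 0.00302) and Zfp652 (log2 fold change -0.48, standard error 0.07, adjusted p = 4.63e-05) also fell. Zfp521 was at 21.9, 15.1 and 15.1 CPM in LAC and Zfp652 at 61.6, 60.8 and 61.9 CPM in LAC. Both genes had risen in KO vs ACT, a comparison that shares the KO libraries. Zfp319, which has no KRAB box, was at 21.1, 16.3 and 19.2 CPM in LAC and 28.6, 26.9 and 27.9 CPM in KO (log2 fold change -0.54, standard error 0.10, adjusted p = 9.19e-04), and Zfp235, a KRAB gene, at 4.14, 3.85 and 5.17 CPM in LAC and 6.94, 8.27 and 6.79 CPM in KO (log2 fold change -0.63, standard error 0.17, adjusted p = 0.00917). Zfp598 fell too (log2 fold change -0.38, standard error 0.07, adjusted p = 0.00109), and so did Zfp59, a KRAB gene with 65.1% of its 31-base stretches shared (-0.52, lost without LAC replicate 1 at an adjusted p of 0.0666). All 12 endothelial and all 12 hepatocyte markers were lower in LAC than in KO, and their part in these falls was not tested.

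Among the rises with lactate were genes that stood low in KO, several of them KRAB genes. KO is the reference of this comparison, so the largest rises favour genes low in KO by construction. Zfp268, whose protein features are not given, rose (log2 fold change 0.93, standard error 0.19, adjusted p = 0.00168), to about the QS level. Zfp709 was at 14.8, 18.8 and 17.9 CPM in LAC and 9.79, 8.25 and 12.5 CPM in KO (log2 fold change 0.71, standard error 0.14, adjusted p = 0.00114), beside 18.2 ± 1.56 CPM in ACT and 18.2 ± 1.04 CPM in QS. Zfp354c was at 9.95, 9.65 and 10.5 CPM in LAC and 6.63, 4.44 and 7.98 CPM in KO (log2 fold change 0.61, standard error 0.16, adjusted p = 0.00809), and Zfp53 at 13.0, 11.8 and 12.5 CPM in LAC and 9.32, 7.74 and 9.11 CPM in KO (log2 fold change 0.47, standard error 0.13, adjusted p = 0.00933). KO had the lowest group mean in Zfp268, Zfp709 and Zfp354c and stood beside QS in Zfp53. Zfp973 (0.72), Zfp993 (0.70), Zfp992 (0.51) and Zfp991 (0.39) also rose, each with 48% or more of its 31-base stretches shared. For Zfp991 the call was lost without KO replicate 1 (adjusted p = 0.0931), KO replicate 2 (adjusted p = 0.0759), LAC replicate 1 (adjusted p = 0.062) or LAC replicate 3 (adjusted p = 0.0936). Zfp968 was called at the edge of the threshold of 0.05 (log2 fold change 0.64), and the call was lost in most alternatives, with an adjusted p of 0.0568 to 0.201 when KO replicate 1 or 3, any LAC or ACT replicate or QS replicate 3 was left out. Of the 14 promoter and chromatin factors, 5 rose and 3 fell in LAC vs KO (35.7% and 21.4%, beside 20% and 21% of all listed genes). The rises were those of Zfp292 (66.9 ± 2.91 CPM in LAC and 51.6 ± 1.42 CPM in KO, log2 fold change 0.37), Zfp644 (0.37), Zfp281 (0.28), Zfp148 (0.26) and Zfp143 (0.40, lost without KO replicate 1, at an adjusted p of 0.0707, without LAC replicate 1, at 0.0533, or without LAC replicate 3, at 0.0553). The 3 called lower all lost their call without some single library: Zfp335 without KO replicate 1 or 2, LAC replicate 2 or 3 or ACT replicate 1 (adjusted p 0.0526 to 0.155), Zfp384 without KO replicate 2 or LAC replicate 2 (adjusted p 0.122 and 0.129) and Zfp592 without KO replicate 1 or LAC replicate 3 (adjusted p 0.0751 and 0.0501). Zfp638 (log2 fold change 0.38, standard error 0.05, adjusted p = 2.26e-05) and Zfp516 (log2 fold change 0.46, standard error 0.09, adjusted p = 7.31e-04) rose as well. Of the 14 macrophage markers 10 were called higher and 1 lower in LAC vs KO, and their part in these rises was not tested.

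Lactate-treated cells were also set against activated cells, which asks how far the family differed when both Cre and lactate had been given. In LAC vs ACT 60 members were called higher and 20 lower (18.5% and 6.17%), where 27.8% of all listed genes were called higher and 21.7% lower, and the median log2 fold change was 0.07 against 0.03. The members called lower numbered 12 without ACT replicate 1 and 13 with equal library totals. The largest rises were those of Zfp366 (log2 fold change 2.88, standard error 0.18, adjusted p = 1.24e-08), Zfp521 (log2 fold change 1.88, standard error 0.16, adjusted p = 3.22e-07) and Zfp69 (log2 fold change 1.36, standard error 0.21, adjusted p = 8.65e-05). Their LAC libraries all lay above all ACT libraries, as did those of Zfp365 (49.8, 43.0 and 48.7 CPM in LAC, log2 fold change 1.13, standard error 0.27, adjusted p = 0.00294), a call lost with a pseudocount of 0.1 (adjusted p = 0.0651). Zfp968 (6.26 ± 0.971 CPM in LAC and 2.51 ± 0.450 CPM in ACT) and Zfp850 (24.1 ± 0.527 CPM in LAC and 12.5 ± 1.79 CPM in ACT) rose as well. The falls held Zfp414, which has no KRAB box (3.59 ± 1.27 CPM in LAC and 8.68 ± 1.77 CPM in ACT). Zfp268 (-0.90), Zfp991 (-0.69), Zfp992 (-0.65) and 3 further genes without a KRAB box fell too. The first of these, Zfp395, a DNA-binding protein with a single finger, was at 13.0, 15.7 and 14.1 CPM in LAC and 22.3, 26.3 and 26.3 CPM in ACT (log2 fold change -0.77, standard error 0.12, adjusted p = 8.67e-05). Zfp710 was at 38.2, 42.5 and 39.4 CPM in LAC and 62.2, 56.4 and 59.1 CPM in ACT (log2 fold change -0.55, standard error 0.07, adjusted p = 1.89e-05). Zfp36l2, with the library values given above, fell by 0.53 on the log2 scale (standard error 0.04, adjusted p = 5.99e-08). In none of the 3 did a LAC library reach an ACT library. All 12 endothelial markers were called higher and all 14 macrophage markers lower in LAC vs ACT, and their part in these changes was not tested.

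ACT vs QS and LAC vs KO have no library in common, and their calls are set side by side. The calls are still not independent, because each gene has 1 estimate of spread from all 12 libraries. Members of higher level were also called more often in both. From under 10 CPM to 30 CPM or more, the share called lower went from 35.8% to 72.6% in ACT vs QS and from 5.83% to 17.8% in LAC vs KO. The base shares below do not allow for this. Of the 33 members called lower in LAC vs KO, 28 were also called lower in ACT vs QS (84.8% of these 33 and 17.6% of the 159 lower in ACT). Over all listed genes the same overlap was 64.3% of the genes lower in LAC vs KO and 38.1% of those lower in ACT vs QS, and the base share called lower in ACT vs QS was 49.1% of all members and 35.5% of all listed genes. The 28 include all 3 ZFP36 genes, Zfp366, Zfp521, Zfp652, Zfp503, Zfp319 and Zfp598. Of the 35 members called higher in LAC vs KO, 9 were called higher in ACT vs QS (25.7%, and 23.7% of the 38 higher in ACT), where over all listed genes it was 65.8% and 34.6%, on base shares of 11.7% of members and 38.0% of all listed genes called higher in ACT vs QS. These 9 were Zfp266, Zfp268, Zfp354c, Zfp518b, Zfp53, Zfp697, Zfp991, Zfp992 and Zfp993. A further 17 of the 35 were lower in ACT (48.6%, which is close to the base share of 49.1%, and 10.7% of the 159), against 19.4% and 10.9% over all listed genes, and they include Zfp143, Zfp148, Zfp281, Zfp292, Zfp516, Zfp638 and Zfp644. Zfp57 was the only member higher in ACT vs QS and lower in LAC vs KO. Its LAC vs KO call (-0.36) was lost without KO replicate 2 (adjusted p = 0.155), KO replicate 3 (adjusted p = 0.0502), LAC replicate 2 (adjusted p = 0.094) or LAC replicate 3 (adjusted p = 0.0945), and the losses of its ACT vs QS call are given above. Of the 14 macrophage markers 7 were called higher and 5 lower in ACT vs QS, and 10 higher and 1 lower in LAC vs KO, and all 12 endothelial and all 12 hepatocyte markers were called lower in both. Their part in the shared calls was not tested.

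**Figure D4:**
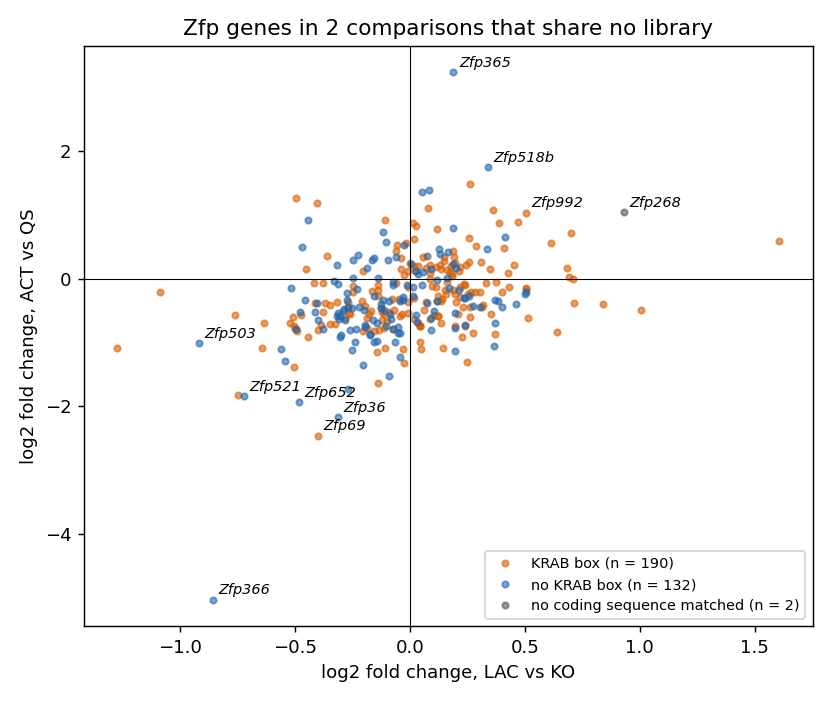
Log2 fold changes on the log2(CPM + 1) scale of the 324 Zfp genes in LAC vs KO (horizontal axis) and ACT vs QS (vertical axis), which share no library. Points are genes, coloured by the presence of a KRAB box, and 10 of them are named. More points lie below 0 than above it on the vertical axis (229 against 95), and the 28 genes called lower in both lie in the lower left.

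The members were sorted by what their proteins hold, read from the translated coding sequences of the 322 that matched 1 annotated gene. A KRAB box was found in 190 of them, and 132 had none. The number of C2H2 fingers had a median of 11 and a middle range of 7 to 14, reached 37, and was 0 in 10 members, the ZFP36 genes among them. KRAB genes were expressed at lower levels than the rest, with a median of 9.84 CPM in LAC, 9.32 in KO, 8.81 in ACT and 11.6 in QS, against 23.9, 25.9, 21.9 and 26.8 CPM for members without a KRAB box. In ACT vs QS 23 KRAB genes were called higher and 82 lower (12.1% and 43.2%, median log2 fold change -0.29). Without a KRAB box it was 13 and 77 (9.85% and 58.3%, -0.40). Of all members 11.7% were called higher and 49.1% lower, and of all listed genes 38.0% and 35.5%. In KO vs ACT 43 of the KRAB genes were called higher and 28 lower (22.6% and 14.7%), and 46 and 15 of the others (34.8% and 11.4%), beside 36.0% and 26.3% of all listed genes. These shares are a description without a test of the difference between the classes. The classes here and below also differ in level. In ACT vs QS the share of members called lower went from 35.8% under 10 CPM to 72.6% from 30 CPM up. The part of level in the shares of the classes was not tested. Members with 15 or more fingers had the fewest rises in ACT vs QS, 3 higher and 35 lower of 71 (4.23% and 49.3%). Members with 0 to 4 fingers had 9 and 25 of 49 (18.4% and 51.0%). In both classes the share called lower was close to the 49.1% of all members. Their median level in ACT was 10.7 and 24.9 CPM. KRAB genes share more sequence with other genes, with a median of 6.4% of their 31-base stretches found elsewhere against 0.235% in the others. Among the 63 members with 20% or more shared, 10 were called higher and 27 lower in ACT vs QS (15.9% and 42.9%). Among the 259 with less it was 26 and 132 (10.0% and 51.0%).

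Zfp genes lie in clusters along the mouse genome. Chromosome 7 held 73 of the 322 placed members (22.7%), chromosome 17 held 45 and chromosome 13 held 34. On GRCm38, with gene positions from GENCODE M21, chains of at least 4 members no more than 500 kb apart numbered 17 and took in 148 members. In 14 of the 17 chains the median log2 fold change of ACT vs QS was below 0. Over all 324 members that median was -0.35, 70.7% lay below 0, and 11.7% were called higher and 49.1% lower. Chains that mostly fell thus follow the family as a whole. In the chain of 22 KRAB genes at chr13:67038596-67827002, from Zfp712 to Zfp273, 12 members were called lower in ACT vs QS and the others were not called (median -0.36). It holds Zfp729a, which had the highest CPM of all members. In the chain of 23 KRAB genes at chr17:21008903-23599487, from Zfp160 to Zfp13, 2 rose, Zfp53 and Zfp54, and 13 fell (median -0.47). In the 14 members at chr7:29768552-30169750, from Zfp84 to Zfp146, 1 rose and 9 fell (median -0.55), the riser being Zfp568. The 7 KRAB genes at chr4:146449023-147848366, from Zfp992 to Zfp933, went the other way. In ACT vs QS 4 of them rose and 1 fell (median 0.71), in KO vs ACT 4 fell (-0.40), in LAC vs KO 3 rose (0.39), and in LAC vs ACT 3 fell (-0.26), with the rest not called. The median member of this chain shares 48.3% of its 31-base stretches with another gene, and how far reads move among these 7 was not tested.

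**Figure D5:**
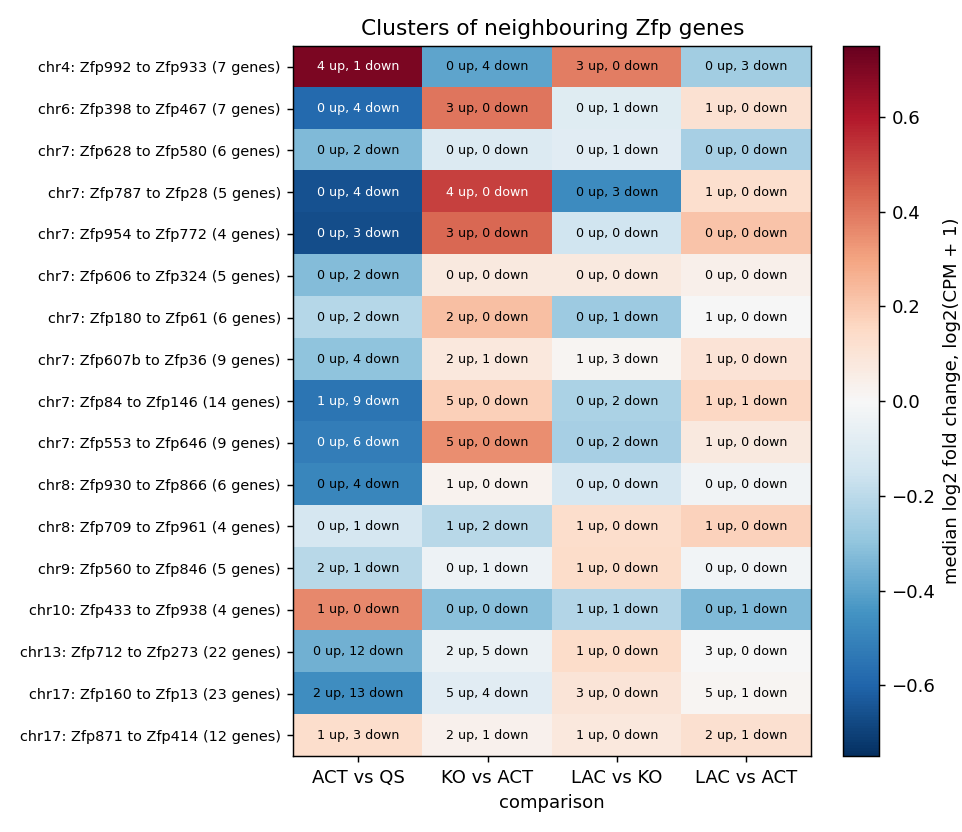
Median log2 fold change, on the log2(CPM + 1) scale, of the 17 chains of neighbouring Zfp genes (rows, by chromosome, named by their first and last member) in the 4 comparisons (columns), with the number of members called higher (up) and lower (down) in each cell. The chain on chromosome 4 is the one with the highest median in ACT vs QS (0.71) and the lowest in KO vs ACT (-0.40).

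Some members kept a steady level. Among those with at least 20 CPM in the mean, the smallest ranges of the 4 group means belonged to Zfp397, Zfp131, Zfp275, Zfp729a and Zfp207. Zfp397 was at 50.3 ± 3.60 CPM in LAC, 48.5 ± 0.989 CPM in KO, 49.9 ± 2.74 CPM in ACT and 53.5 ± 1.62 CPM in QS. Zfp131 was at 50.5 ± 2.87 CPM in LAC, 53.1 ± 1.99 CPM in KO, 52.2 ± 1.08 CPM in ACT and 56.2 ± 4.27 CPM in QS, and Zfp275 at 46.5 ± 0.714 CPM in LAC, 47.0 ± 3.35 CPM in KO, 49.5 ± 3.94 CPM in ACT and 53.0 ± 1.42 CPM in QS. None of these 3 was called in any of the 4 comparisons by limma, and neither was Zfp207, a spindle and splicing protein at 176 ± 13.6 CPM in LAC, 172 ± 10.1 CPM in KO, 166 ± 7.15 CPM in ACT and 158 ± 7.97 CPM in QS. Zfp729a, which shares 25.3% of its 31-base stretches and is uncertain to that extent, at 927 ± 14.1 CPM in LAC, 835 ± 37.4 CPM in KO, 834 ± 38.3 CPM in ACT and 939.9 ± 9.78 CPM in QS, was called lower in ACT vs QS (-0.17) and higher in LAC vs KO (0.15) and LAC vs ACT (0.15). Zfp706, which encodes a small protein with 1 finger, was at 81.9 ± 2.43 CPM in LAC, 90.3 ± 7.97 CPM in KO, 107 ± 6.17 CPM in ACT and 106 ± 7.59 CPM in QS, and it fell in KO vs ACT (log2 fold change -0.24, standard error 0.07, adjusted p = 0.00731) and in LAC vs ACT (log2 fold change -0.38, standard error 0.07, adjusted p = 3.77e-04).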

How the data were processed

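RNA-seq was measured in 3 libraries of each of LAC, KO, ACT and QS. The values were deposited by the authors as 1 table of a depth-normalized signal per gene, headed as normalized CPM. Column totals run from 959233 to 1.047e6 and so are not plain CPM. The submitters' processing notes name FastQC 0.11.8, cutadapt 1.18, kallisto 0.44.0, edgeR 3.8 and mm10, without roles. All listed genes reach 1 CPM in 3 or more libraries, and genes under that limit are not analysed here. Only 10.9% to 24.4% of values per library fell within 0.01 of a whole number of reads, and no count test was run.

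From this table log2(CPM + 1) was fitted over all 12081 genes and 4 groups with limma 3.58.1 in R 4.3.3 (moderation with a trend, 8 residual degrees of freedom), with Benjamini-Hochberg adjustment over all genes and calls at an adjusted p under 0.05. The scripts were tested on simulated data. Fingers, KRAB boxes (a position matrix over 30 residues, limit 20 bits) and 31-base stretches shared with other genes were read from GENCODE M21, and promoters from RefSeq. Named genes were, per comparison, the 6 largest rises and 6 largest falls among called members with at least 5 CPM and no overlap of libraries, the role lists, the 10 highest per kb and the 5 of at least 20 CPM with the smallest range. The length behind the per kb values is the median annotated transcript, which takes in short isoforms, so no order by it is given. Members and lists were chosen with earlier results of these data known. Libraries were not treated as paired by replicate number, and nothing states whether they are. Scalings, pseudocounts, filters, fits of 2 groups, thresholds and left-out libraries were tried as alternatives.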

Additional observations from a re-analysis of the deposited data

How the results depend on the processing

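Counts of Zfp genes called kept within 1.5 times of the values given in all but the following alternatives. With a change of at least 2-fold required, 10, 7, 2 and 5 genes were higher and 25, 6, 1 and 2 lower in the comparisons ACT vs QS, KO vs ACT, then LAC vs KO, then LAC vs ACT. Over all 12081 listed genes these counts were 1965, 1108, 618 and 781 higher and 1800, 1181, 264 and 743 lower. At an adjusted p under 0.01, KO vs ACT had 58 higher and 29 lower, LAC vs KO 23 higher and 12 lower, and LAC vs ACT 12 lower. With equal library totals LAC vs ACT had 13 lower. When each library was left out in turn, the genes called higher numbered 35 to 40, 70 to 94, 27 to 39 and 49 to 65 in the 4 comparisons, and those called lower 146 to 163, 37 to 45, 19 to 35 and 12 to 22. The low ends of 19 (LAC vs KO) and 12 (LAC vs ACT) came without LAC replicate 3 and without ACT replicate 1, and the cause was not tested. With the replicate number as a block the calls were 37, 85, 34 and 63 higher and 158, 42, 33 and 15 lower. Same-numbered libraries did not deviate together (correlations of -0.042 to 0.086), which cannot tell whether they have a common origin. Counting only members with under 20% of their 31-base stretches shared, chosen after seeing the data, gave 26, 72, 25 and 48 higher and 132, 33, 27 and 14 lower, from fewer genes. Of 178 called results of 71 named genes, 150 kept their call in all settings, 28 lost it in some and 0 reversed by limma. No scaling moved the median of all genes by more than 0.076 on the log2 scale. Depth limits the lowest members, since 3 reads were worth 0.212 to 0.720 CPM, and members that share most of their sequence cannot be read singly.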
